A study of Mus musculus with 4 samples.

Results

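The genes described here encode the parts of elastic fibres and fibrillin microfibrils: Eln, Fbn1, Fbn2, Fbln1, Fbln2, Fbln5, Efemp1, Efemp2, Thsd4 and Mfap5. Of these 10 genes, 8 had an array row annotated with their symbol alone, out of 22180 genes so named in the series. Each of the 8 had a single such row, so the rule that takes the brightest row made no choice among them. Fbn1 and Efemp2 were not analysed here. The genes and the comparison of Thsd4 with Efemp1 were selected on the measured mutant minus WT differences, so those differences are given as a description, without a test.

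Elastic fibres consist of a core of cross-linked elastin laid down on a scaffold of fibrillin microfibrils. Fibulins and lysyl oxidases guide and fix the deposition of elastin, and microfibrils also hold latent TGF-beta and BMP complexes in the matrix. In bone, which has little elastin, fibrillin microfibrils are known from mouse genetics to modulate TGF-beta and BMP signalling in osteoblasts.

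Primary osteoblast cultures from the skull vault (calvaria) of newborn mice were measured after 21 days of differentiation in an osteogenic medium, on 4 arrays. The groups were Runx3f/f/Col1a1-cre cultures (2 arrays), in which a floxed Runx3 gene is exposed to Cre expressed under the promoter of Col1a1, and wild-type (WT) cultures (2 arrays), labelled as biological replicates 1 and 2 of each. The promoter limits the model to cells that make type I collagen, and the labels give neither the deleted exons nor the number of animals behind a culture, nor whether the replicates came from separate litters, so the spread between arrays may be partly technical. Runx3 encodes a Runt-family transcription factor, and the series asked which genes depend on it in osteoblasts.

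Several features of the whole series bear on every value below. The Runx3 row read 7.94 and 8.06 on the arrays labelled Runx3f/f/Col1a1-cre and 7.45 and 7.87 on the WT arrays, or 0.34 higher on the log2 scale (SE 0.20, adjusted p = 1 in limma), so it was not lower under the mutant label. Whether its probes lie in the deleted part is not known here, and those arrays are called mutant-labelled below. The tissue tag reads myoblast while titles and cell type tag read osteoblast. Values of 8 myoblast markers, Myod1 and Myog among them, lay between 3.82 and 6.72, whereas Col1a1 lay between 13.45 and 13.57. Of the 8 markers, 6 exceeded the detection floor of 4.71 on all 4 arrays and 1 lay below it on all 4. The deposited values were taken as log2 intensities, and the median of the tested genes was 0.28 higher in replicate 2 than in replicate 1 in both genotypes. Mutant-labelled and WT arrays of the same number held exactly equal values, with no tolerance, for 35.8% of 17841 tested genes in replicate 1 and 50.2% in replicate 2; how they arose is not stated in the labels, and an equal value does not show that a gene was unaffected. Across all tested genes, 0 (0%) passed a Benjamini-Hochberg adjusted p of 0.05 in limma, whose smallest adjusted p was 0.312, and 707 (3.96%) had an unadjusted p under 0.05. An intensity trend in limma's variance called 49 genes. With 2 arrays against 2, an exact two-sided permutation test of a single value cannot give a p below 0.333.

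The sequences shown are those next to the start sites of the 2 genes with the largest differences of either sign in the set. They are given because the mutant label names a floxed gene for a factor that binds DNA. Each sequence is the 250 bases before a RefSeq start site in GRCm38.p6, read along the gene's strand, 5′ to 3′. Thsd4 has start sites with windows at chr9:60511036-60511285 (minus strand) and chr9:60141221-60141470 (minus strand), and Efemp1 has 1 at chr11:28852955-28853204 (plus strand). Capitals mark GTGGT, a shortened form of the Runt-domain site, on either strand.
Thsd4, first start site: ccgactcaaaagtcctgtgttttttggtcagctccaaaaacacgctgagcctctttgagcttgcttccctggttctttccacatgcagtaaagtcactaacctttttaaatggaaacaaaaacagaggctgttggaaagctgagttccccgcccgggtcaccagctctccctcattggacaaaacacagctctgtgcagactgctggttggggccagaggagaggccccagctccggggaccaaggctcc
Thsd4, second start site: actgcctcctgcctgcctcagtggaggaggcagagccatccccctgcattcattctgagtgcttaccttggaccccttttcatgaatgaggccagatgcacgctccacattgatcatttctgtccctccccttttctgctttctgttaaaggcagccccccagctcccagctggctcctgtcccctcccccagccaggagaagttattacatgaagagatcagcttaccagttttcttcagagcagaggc
Efemp1: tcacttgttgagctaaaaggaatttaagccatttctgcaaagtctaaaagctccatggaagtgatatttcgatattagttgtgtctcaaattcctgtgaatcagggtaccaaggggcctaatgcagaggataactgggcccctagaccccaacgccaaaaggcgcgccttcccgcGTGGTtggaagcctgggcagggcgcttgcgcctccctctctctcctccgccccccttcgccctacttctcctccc

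The usual 6-base Runt-domain sites, TGTGGT and TGCGGT, were searched on both strands. They were in 0 of 8 windows of the 5 described genes whose windows were used (Fbln1, Fbln2, Fbln5, Efemp1 and Thsd4). Over all genes, 18.6% of 32851 windows of the same length held either. Windows on the chromosome of Fbn2 were left out for the described genes but kept among all windows, and Eln and Mfap5 had no entry. The search therefore says nothing about Fbn2, Eln or Mfap5. The shorter GTGGT, which lies within TGTGGT and was searched after the longer forms gave no match, stood in the Efemp1 window with its first base 75 bases before the start and in 1 window of Fbln5, on the opposite strand, against 35.3% of all windows. Neither Thsd4 window held it. The Efemp1 window held 10 CpG dinucleotides and the Thsd4 windows 5 and 1, where the median of all windows was 6. A match is a run of letters and not a binding site, and the absence of one covers this window only.

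Thsd4, which encodes ADAMTSL6, a secreted protein that promotes the assembly of fibrillin-1 into microfibrils, differed most. It read 10.15 and 10.18 on the mutant-labelled arrays against 7.73 and 8.05 on the WT arrays. Both mutant-labelled arrays lay above both WT arrays, with a gap of 2.10 log2 units between the groups, while the WT arrays differed from each other by 0.32 and the mutant-labelled arrays by 0.03. The mean was 4.83-fold higher (10.16 ± 0.02 against 7.89 ± 0.23, SD, n = 2 arrays per group), with a log2 difference of 2.42 within replicate 1 and 2.12 within replicate 2. Of all genes tested, 11 had a larger positive mean difference.

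Mfap5 encodes MAGP-2, a small glycoprotein bound along microfibrils, and its difference was smaller and less even than that of Thsd4. It read 10.65 and 10.42 on the mutant-labelled arrays against 10.12 and 10.19 on the WT arrays, without overlap. The log2 difference was 0.53 within replicate 1 and 0.23 within replicate 2, and the gap between the groups, 0.23, was about as large as the difference between the mutant-labelled arrays themselves, which was -0.23 for replicate 2 minus replicate 1.

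Fbn2 encodes fibrillin-2, the fibrillin best known from embryonic and perinatal microfibrils. It read 11.01 and 11.10 on the mutant-labelled arrays against 10.45 and 10.58 on the WT arrays, again without overlap. Its difference was the most even of the genes that were not equal, at 0.56 and 0.52 within the replicates, and amounted to 1.45-fold higher (11.06 ± 0.07 against 10.52 ± 0.09, SD, n = 2). That is just short of the 1.5-fold used as a size threshold below.

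Eln encodes tropoelastin, the soluble precursor of elastin. It read 10.32 and 10.45 on the mutant-labelled arrays against 9.90 and 10.19 on the WT arrays. The groups did not overlap, but their gap of 0.13 was smaller than the difference of 0.30 between the WT arrays. The log2 difference was 0.42 within replicate 1 and 0.25 within replicate 2, a mean of 1.26-fold higher.

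**Figure D1:**
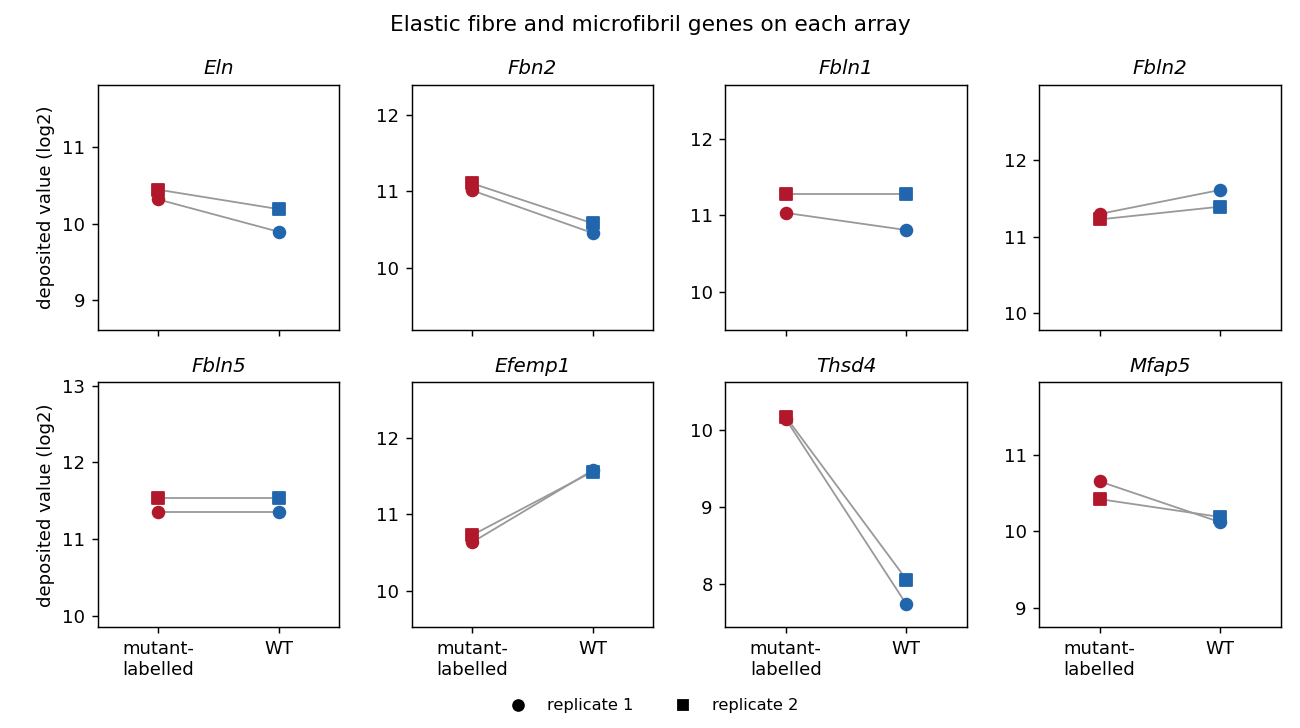
Deposited log2 value of each gene on each array, with mutant-labelled arrays on the left and WT arrays on the right of each panel. Circles are replicate 1, squares are replicate 2, grey lines join arrays of the same number, and every panel spans the same log2 range. Thsd4 stands 2.42 and 2.12 higher on the mutant-labelled arrays, Efemp1 0.94 and 0.83 lower, and Fbln5 is level in both replicates.

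Among the short fibulins, Efemp1 and Fbln5 differed from each other. Efemp1 encodes fibulin-3, a secreted glycoprotein of basement membranes and elastic tissues. It read 10.63 and 10.72 on the mutant-labelled arrays against 11.57 and 11.55 on the WT arrays. The groups did not overlap, and their gap of 0.83 was larger than the difference between arrays within either group (0.09 and 0.02). The mean was 1.85-fold lower (10.68 ± 0.07 against 11.56 ± 0.01, SD, n = 2), at -0.94 and -0.83 within the replicates, and 144 of the tested genes had a larger negative mean difference.

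Fbln5 encodes fibulin-5, which binds both tropoelastin and lysyl oxidase-like 1. It read 11.35 and 11.54 on the mutant-labelled arrays and exactly the same values on the WT arrays of the same number. Fbln5 was the only gene of the 8 with equal values in both replicates, a state shared by 25.7% of all tested genes. With Fbln1, 2 of 8 held equal values in at least 1 replicate, against 60.3% of all tested genes.

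The long fibulins gave small differences. Fbln2, whose product bridges fibrillin and other matrix proteins, read 11.30 and 11.23 on the mutant-labelled arrays against 11.61 and 11.39 on the WT arrays. The groups were separated by 0.10, less than the 0.22 between the WT arrays, and the log2 differences were -0.31 and -0.17 within the replicates. Fbln1, which encodes a fibulin found in elastic fibres and basement membranes, read 11.03 and 11.29 on the mutant-labelled arrays against 10.81 and 11.29 on the WT arrays. These groups overlapped: the replicate 2 values were exactly equal, and the replicate 1 difference was 0.22. The mean difference of 0.11 turned to -0.01 without mutant-labelled replicate 2 and to -0.13 without WT replicate 1, settings in which the arrays compared no longer share their replicate numbers.

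Of the 8 genes, 4 were higher within both replicates (Thsd4, Fbn2, Eln and Mfap5) and 2 were lower within both (Efemp1 and Fbln2), against 16.8% and 19.5% of all tested genes. Genes with equal values in at least 1 replicate (2 of the 8, 60.3% of all tested genes) cannot enter these counts, which lowers the shares over all genes. The same 4 and 2 genes had groups that did not overlap, which was so for 7.66% of tested genes on the higher side and 9.25% on the lower side. At least 1.5-fold within both replicates, 1 of 8 was higher (Thsd4) and 1 of 8 lower (Efemp1), where 263 of 17841 tested genes (1.47%) were higher and 206 (1.15%) lower. These counts belong to genes selected with the values in view, and nothing is read from them about elastic fibre genes as a class. The median log2 difference of the 8 was 0.23, beside 0 for all genes tested, of which 25.7% lay at exactly 0 through equal values. In 7 of 8 genes the difference was larger in size within replicate 1 than within replicate 2, Fbln5 being the exception. Over all tested genes the differences also spread more in replicate 1 (SD 0.29) than in replicate 2 (SD 0.25), so this is not particular to the 8. All 8 genes exceeded the detection floor on all 4 arrays, and the lowest value among them was that of Thsd4 on a WT array, 7.73.

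**Figure D2:**
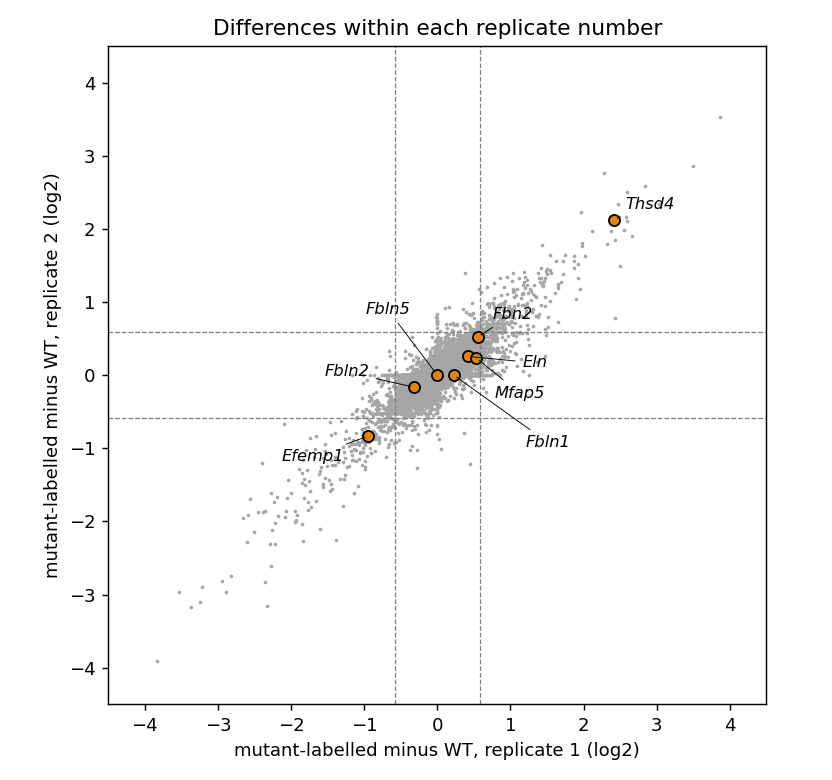
Log2 difference, mutant-labelled minus WT, within replicate 1 (horizontal axis) and replicate 2 (vertical axis). Grey points are the 17841 tested genes, orange points are the described genes, and dashed lines mark 1.5-fold. Thsd4 lies in the upper right corner region and Efemp1 in the lower left one, both past 1.5-fold in both replicates, with the other 6 genes inside both pairs of dashed lines.

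Thsd4 and Efemp1 lay on opposite sides within each replicate. The log2 difference of Thsd4 minus that of Efemp1 was 3.36 in replicate 1 and 2.95 in replicate 2, with a mean of 3.16, an 8.92-fold ratio between their fold changes. It ran from 2.95 to 3.36 with any array or replicate left out and was 3.15 after quantile normalization again. In bulk cultures, a smaller share of the cells that make a transcript and less of it per cell cannot be told apart.

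The genes with the within-replicate differences closest to those of Thsd4, by Euclidean distance over the 2 replicates, were Uty (2.37 and 1.97), the microRNA gene Mir3962 (2.58 and 2.16) and Kdm5d (2.56 and 1.99). Uty and Kdm5d lie on the Y chromosome, whereas Thsd4 is autosomal. All 4 sex-linked genes with a row had groups that did not overlap, 3 of them higher and 1 lower on the mutant-labelled arrays, where 7.66% of all tested genes were higher and 9.25% lower without overlap. Eif2s3y read 9.38 and 9.32 on the mutant-labelled arrays against 6.72 and 7.42 on the WT arrays, and Xist, the RNA that coats the inactive X chromosome, read 10.51 and 10.57 against 11.79 and 11.99. The sex of the animals is not among the labels, these genes differed along with the genotype label in both replicates, and the part of sex in the values above was not tested. Closest to Efemp1 were Fyb, which encodes an adaptor protein of immune cells, (-0.93 and -0.81), the osteoblast and osteocyte gene Phex (-0.89 and -0.77) and Ankrd1, which encodes an ankyrin-repeat protein (-0.86 and -0.80). Within a distance of 0.5 log2 units lay 11 other genes for Thsd4 and 208 for Efemp1, so differences of the size of those of Efemp1 were more common.

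The other genes of elastic fibre assembly and turnover were taken from lists by role, of which 45 of 48 had a row and all 45 were tested. In limma 0 passed the adjusted threshold in either direction, 3 had an unadjusted p under 0.05 (Adamts6, Tgfb2 and Ctss), and the smallest adjusted p was 0.528. Within both replicates 11 of 45 were higher and 13 lower, where 16.8% and 19.5% of all tested genes were. Those shares are lowered by the 60.3% of all tested genes with equal values in at least 1 replicate. The median difference of the 45 was 0. All tested genes also had a median of 0, but 25.7% of them lay at exactly 0 through equal values, so the match says little. At least 1.5-fold within both replicates, 1 of 45 was higher, Adamts6, and 1 lower, Ctss, near the 1.47% and 1.15% of all tested genes.

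Of 15 other microfibril components, 8 were higher and 2 lower within both replicates (16.8% and 19.5% of all tested genes), with a median log2 difference of 0.08. Equal values in at least 1 replicate, which bar a gene from these counts, were held by 4 of the 15 against 60.3% of all tested genes. The shares over all tested genes are therefore a low yardstick for this list. In limma 0 of the 15 passed, so the list is given by its counts alone. Adamts6, which encodes a metalloprotease of the family that acts on microfibril proteins, read 8.46 and 8.47 on the mutant-labelled arrays against 7.51 and 7.76 on the WT arrays. It was 1.78-fold higher (log2 difference 0.83, SE 0.15, limma adjusted p = 0.611), with no overlap. Its homologue Adamts10, whose product binds fibrillin-1 and favours microfibril formation, was at 0.34 (10.07 and 10.19 against 9.72 and 9.86, adjusted p = 1 in limma). Mfap4, whose product binds tropoelastin and microfibrils, was at 0.32, and Ltbp4, a latent TGF-beta binding protein needed for elastic fibre assembly, at 0.27, both without overlap. Ltbp2 and Emilin1, both microfibril-associated, were at 0.08 each with overlapping groups. Mfap2, which encodes MAGP-1, was at 0.00, and Adamtsl2 held equal values in both replicates.

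In the fibulin family, Fbln7 was lower, at 9.26 and 9.59 on the mutant-labelled arrays against 9.74 and 9.96 on the WT arrays, or -0.42 in log2 terms (SE 0.19, adjusted p = 1 in limma). Hmcn1, the large fibulin-related hemicentin, was at 0.13 with overlap.

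The list of cross-linking enzymes of elastin and collagen, which also held Atp7a (log2 difference -0.03), gave 0 calls in limma. Lox, the main lysyl oxidase, read 13.15 and 13.43 on the mutant-labelled arrays against 13.17 and 13.43 on the WT arrays, and Loxl1, which acts on elastin, 11.82 and 12.09 against 11.83 and 12.08. Loxl3 was at -0.34 without overlap and Loxl4 at -0.32 with overlap (SE 0.15 and 0.23, adjusted p = 1 for both in limma). Of 5 tested genes of this list 0 were higher and 2 lower within both replicates, where 16.8% and 19.5% of all tested genes were. With 5 genes, these counts show no direction for the list.

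Among integrin receptors, TGF-beta ligands and the convertase that processes fibrillin, 6 of 10 were lower and 1 higher within both replicates (19.5% and 16.8% of all tested genes), with a median of -0.08 and 0 calls in limma. Equal values in at least 1 replicate, which bar a gene from these counts, were held by 3 of the 10 against 60.3% of all tested genes. Tgfb2, a TGF-beta ligand stored on microfibrils as a latent complex, read 10.35 and 10.30 on the mutant-labelled arrays against 10.90 and 10.68 on the WT arrays (log2 difference -0.46, SE 0.14, limma adjusted p = 1). Itga5, the fibronectin receptor subunit, was at -0.33 without overlap. Itgb3, the beta subunit of an integrin that binds fibrillin, was at -0.01.

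Of 8 proteases that can degrade elastin, Ctss stood apart. This lysosomal cathepsin, abundant in macrophages, read 6.60 and 7.43 on the mutant-labelled arrays against 9.16 and 9.12 on the WT arrays. It was 4.38-fold lower (log2 difference -2.13, SE 0.33, limma adjusted p = 0.528). Mmp12, the macrophage elastase, was dim, at 5.54 and 5.57 against 5.79 and 5.83. Mmp2, a gelatinase of stromal cells, was at 0.02. The matrix partners Vcan, Hspg2, Fn1, Bgn and Dcn differed by at most 0.04 in size, and 4 of these 5 held equal values in at least 1 replicate.

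**Figure D3:**
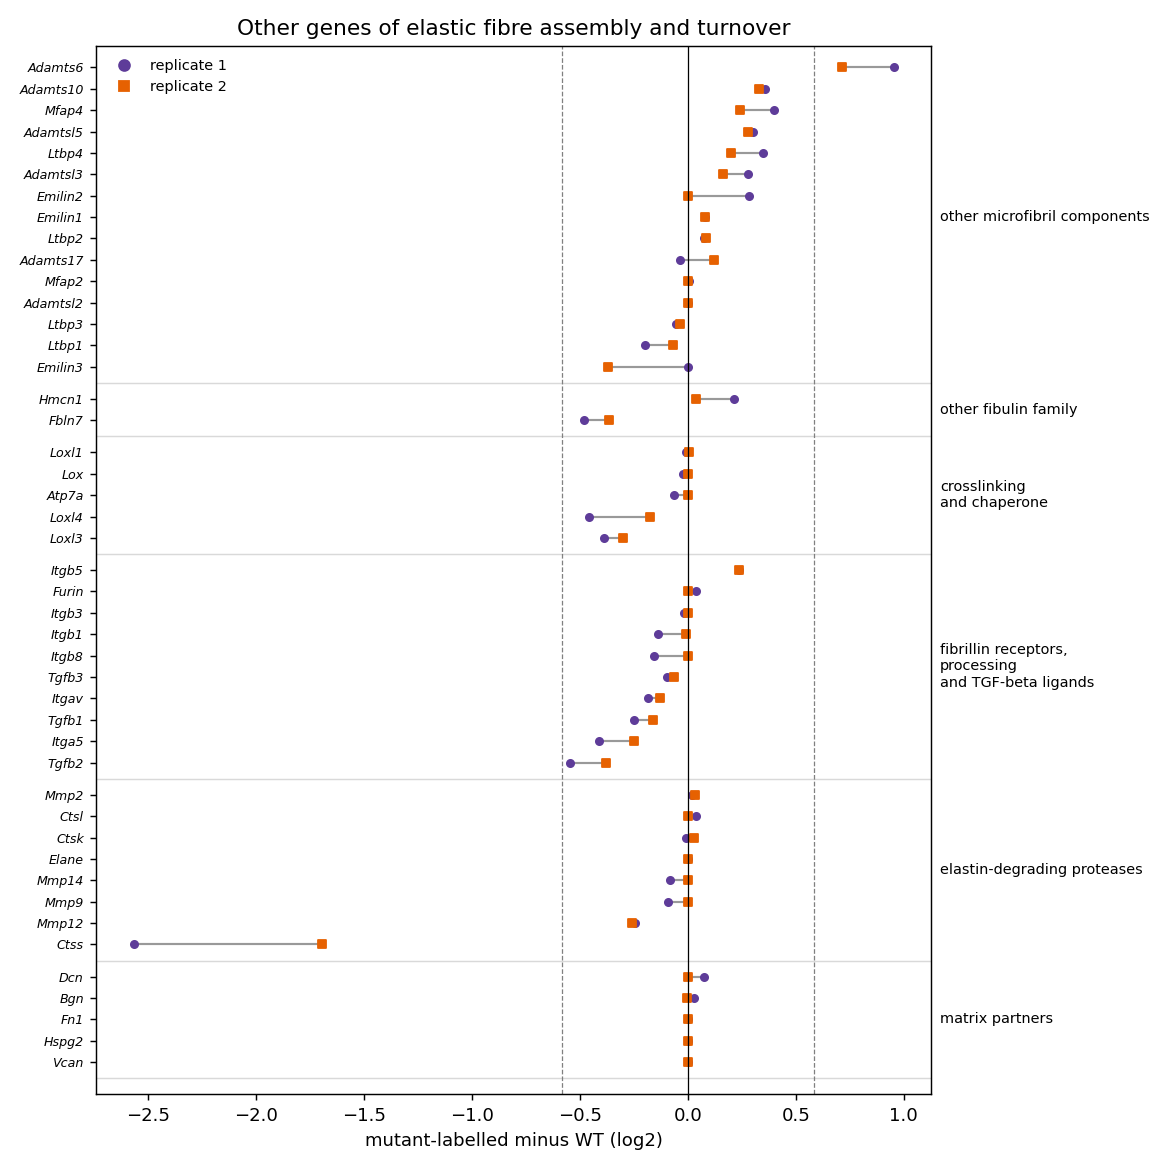
Log2 difference, mutant-labelled minus WT, of the 45 tested genes of elastic fibre assembly and turnover that are not among the 8, by role. Circles are replicate 1, squares replicate 2, grey lines join them, and dashed lines mark 1.5-fold. Adamts6 (0.95 and 0.71) lies past 1.5-fold on the higher side in both replicates and Ctss (-2.56 and -1.70) on the lower side.

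Markers of the cell types that could contribute these transcripts were read on the same arrays, as the log2 of the summed linear values of each list, and 0 of them passed limma's adjusted threshold. Smooth muscle and pericyte markers, from cells that make elastic fibres in vessels, summed to 14.81 and 14.99 on the mutant-labelled arrays and 14.85 and 15.04 on the WT arrays. Of 10, 4 were higher and 4 lower within both replicates, with Mylk at 0.77, Myh11 at 0.58, Des at 0.38 and Tagln at -0.27. Mylk alone of the 10 was at least 1.5-fold higher within both replicates (1.47% of all tested genes), and 0 were as far lower (1.15%). Fibroblast and tendon markers summed to 14.45 and 14.52 against 14.39 and 14.47, with 6 of 10 higher and 2 lower within both, Tnmd at 0.25 and S100a4 at -0.45 among them. Of all tested genes, 16.8% were higher and 19.5% lower within both replicates. Equal values in at least 1 replicate, held by 60.3% of all tested genes, lower those shares. Such values were held by 2 of the 10 smooth muscle and pericyte markers and 1 of the 10 fibroblast and tendon markers. For both lists the sums overlapped between groups. A linear sum follows the brightest markers, such as Acta2 at 13.34 to 13.78, and registers dimmer ones such as Myh11 little.

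For 5 other lists the sums did not overlap between the groups, again with 0 markers past limma's adjusted threshold. Among all tested genes, 19.5% were lower and 16.8% higher within both replicates. Those shares are lowered by equal values in at least 1 replicate, held by 60.3% of all tested genes. Macrophage markers summed to 11.31 and 11.49 on the mutant-labelled arrays and 12.91 and 13.02 on the WT arrays, with 11 of 12 lower within both replicates, Mrc1 at -2.93 and Lyz2 at -1.77, and the remaining marker, Aif1, at equal values. Osteoblast markers summed to 15.04 and 15.21 against 15.28 and 15.45, with 5 of 10 lower and 1 higher, Ibsp at -1.55 and Col1a1 at -0.01, and 4 of 10 equal in at least 1 replicate. The gap between these sums came mostly from Ibsp, at 11.31 and 11.66 on the mutant-labelled arrays against 12.87 and 13.19 on the WT arrays. The bright Col1a2 and Sparc were nearly level, at -0.02 and -0.03. Chondrocyte markers summed to 13.08 and 13.16 against 13.61 and 13.62 (6 of 9 lower) and adipocyte markers to 11.20 and 11.07 against 11.84 and 11.64 (6 of 7 tested lower). Of the adipocyte markers, 3 were at least 1.5-fold lower within both replicates (1.15% of all tested genes): Cd36 at -2.10, Lpl at -1.53 and Pparg at -0.74. Adipoq, at 3.96 to 4.78, did not pass the detection filter, and Lep held equal values in both replicates. Endothelial markers summed to 9.70 and 9.72 against 8.64 and 9.03, with 3 of 9 higher: Cdh5 at 1.49, Flt1 at 1.36 and Emcn at 1.12. Cdh5 read 8.63 and 8.41 on the mutant-labelled arrays against 6.93 and 7.13 on the WT arrays, and Flt1 7.65 and 7.44 against 6.20 and 6.18, all above the floor of 4.71. Emcn read 5.15 and 5.26 against 3.76 and 4.42, below the floor on both WT arrays. The other endothelial markers, Pecam1, Kdr, Tek, Tie1, Vwf and Cldn5, lay between 4.63 and 6.04 over the 4 arrays. Of the lists in this and the preceding paragraph, 0 markers lay below that floor on all 4 arrays. The part of any of these cell types in the values of Thsd4, Efemp1 or the other elastic fibre genes was not tested.

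**Figure D4:**
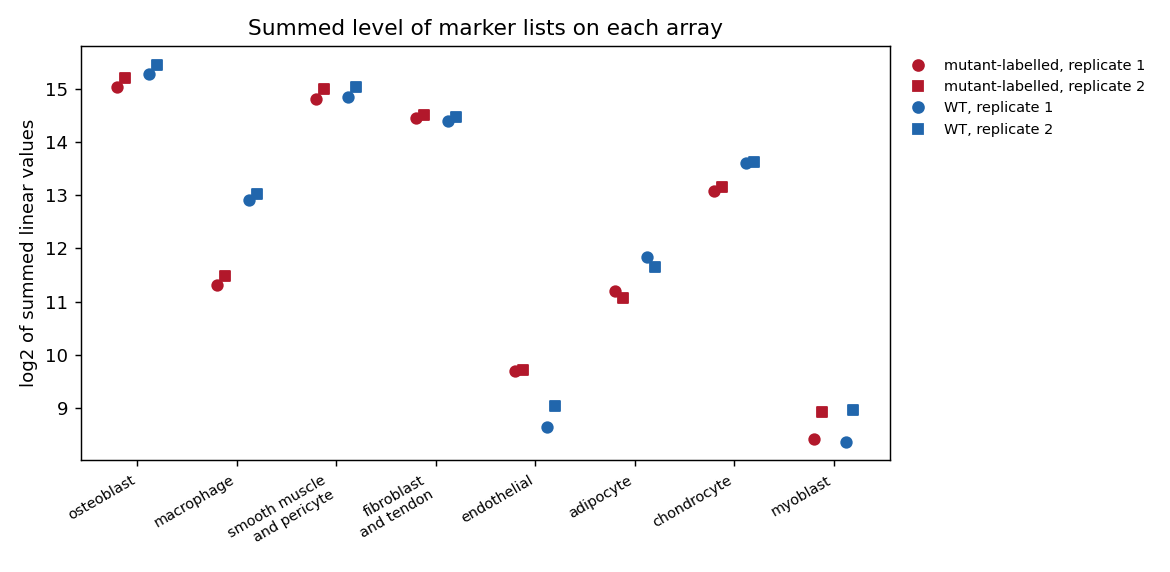
Log2 of the summed linear values of each marker list on each array, mutant-labelled (red) left of WT (blue) in each list, circles for replicate 1 and squares for replicate 2. Macrophage markers lie at 11.31 and 11.49 on the mutant-labelled arrays, below 12.91 and 13.02 on the WT arrays, while the smooth muscle and fibroblast sums overlap between groups.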

How the data were processed

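Total RNA (200 ng) was labelled and hybridised to Affymetrix Mouse Gene 2.0 ST arrays, per the labels and the series' design text. The deposited table holds 1 value per transcript cluster, taken as log2 intensity because Partek and RMA appear, with no version or role, in the submitters' processing notes and RMA gives log2 values. No source used here gives the log base, the centring, the build or which arrays were normalized together, and every fold assumes base 2. The number of arrays limits the precision.

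Rows were named through the supplied platform annotation: of 41345 rows, 23521 had 1 symbol, 1814 several and 16010 none listed. The brightest single-symbol row stood for a gene. Genes were tested where at least 2 arrays exceeded 4.71, the 90th percentile among 1405 rows of olfactory or vomeronasal receptors, by mean level (17841 of 22180 genes). The fit used R 4.3.3 and limma 3.58.1 (lmFit, eBayes, genotype as the only term, all 4 arrays, two-sided), with Benjamini-Hochberg adjustment over all tested genes at 0.05, and was tested on simulated data. The SEs and p-values of that fit therefore include the offset between replicate numbers, which the within-replicate differences do not. Sizes were described by the difference within each replicate number, with 1.5-fold as threshold. Promoter windows are RefSeq's (GRCm38.p6), and 5 of the 8 genes had one that was used.

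The genes, role lists and marker lists were chosen with earlier results of these data known. Named beside the described genes were Runx3, Col1a1, a set of 16 pathway genes and the 2 of smallest limma p per role list, up to 4 markers per list by smallest p, and the 3 genes nearest in pattern to Thsd4 and to Efemp1, predicted genes left out. Other markers, matrix partners and members of small counts were named after their values were seen. The pathway genes Hmcn2, Loxl2 and Fkbp10 were not analysed here. Alternatives covered the filter, normalization, row choice, variance model, replicate block, fold threshold and each array left out.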

Additional observations from a re-analysis of the deposited data

How the results depend on the processing

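The difference of Thsd4 minus Efemp1 ran from 2.95 to 3.36 over the alternatives run, that of Thsd4 alone from 2.11 to 2.43 and that of Efemp1 from -0.94 to -0.83. With 2 arrays per group, leaving 1 out moves a difference by an amount that the replicate gap fixes, so these ranges are no test of stability. Fbln5, at 0, ran from -0.10 to 0.10 with 1 array left out. Among the others the sign turned for Fbln1 alone, at -0.01 without mutant-labelled replicate 2 and -0.13 without WT replicate 1. At 2-fold, 1 gene of the 8 was higher and 0 lower, and at a looser fold threshold 2 were higher (Thsd4 and Fbn2) and 1 lower. Across all genes, 85 were higher and 102 lower at 2-fold in both replicates, and 633 and 506 at the looser threshold. With only 1 replicate used, 326 to 469 genes were at least 1.5-fold higher and 250 to 355 lower, the larger counts without replicate 2. Limma with an intensity trend called 49 genes, 0 of them among the 45 other elastic fibre genes. With the replicate block, limma called 0 genes (smallest adjusted p 0.155), 2319 having an unadjusted p under 0.05, and 0 of the 45 (10 unadjusted), so it changed no call. Deviations from the group means went together in arrays of one number (Pearson r = 0.92 across 17841 genes and 0.88 over the 13258 not equal in both replicates; genes are not independent replicates), but no label ties a number to a litter or day. Every other alternative called 0 genes (each array left out, which assumes that the lone array varies like the other group, gave 276 to 420 with an unadjusted p under 0.05), including quantile normalization again with the replicate block, which was chosen after seeing the data. Each of the 8 genes had 1 row, so no further row could be tried. Dim signals near the floor of 4.71, such as Mmp12, limit what a small difference can show.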

Other observations

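Genes next to the described genes on the chromosome were taken from the RefSeq order on GRCm38.p6 after the values were seen. Thsd4 and Efemp1 were selected on their differences, so smaller differences beside them are a description only. The nearest tested protein-coding genes on either side of the 8 were 16 in number, and 0 of them reached 1.5-fold the same way in both replicates. Of all tested genes, 1.47% did so on the higher side and 1.15% on the lower, so 0 of 16 sets the neighbours apart from no other genes. Their mean log2 differences lay between -0.44 and 0.23. Beside Thsd4, Myo9a, an unconventional myosin, read 10.24 and 10.38 on the mutant-labelled arrays against 10.08 and 10.32 on the WT arrays. Lrrc49, on its other side, read 9.59 and 9.79 against 9.70 and 9.79. Beside Efemp1, Ccdc85a was dim, at 5.88 and 6.80 against 5.52 and 6.70, and Pnpt1, which encodes a mitochondrial RNA-processing enzyme, read 9.11 and 9.34 against 9.06 and 9.34. The gene with the lowest value of the 16 differences was Apobec1, an RNA-editing deaminase gene beside Mfap5, at -0.32 and -0.56 within the replicates.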
